A study of Mus musculus with 16 samples.

Results

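The genes described here are the heat-shock proteins and other chaperones of mouse thymocytes. They were chosen by name: every gene whose symbol begins with Hspa, Hspb, Hspd, Hspe, Hsph, Hsp90, Dnaja, Dnajb or Dnajc, the chaperonin genes Tcp1 and Cct2 to Cct8, and the BAG co-chaperones Bag1 to Bag6. These were 89 of the 22114 genes in each of 2 count tables, and the rule uses no measured value, although the family was proposed with earlier results of these data known. The rule takes in a few genes by name alone, such as Hspbp1, an exchange factor of HSP70, and Hspb11, a protein of cilia.

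RNA-seq was done on DN3 thymocytes, the immature CD4-negative CD8-negative cells in which T-cell receptor beta rearrangement takes place, from C57BL/6 mice. In the first table, DN3 cells of H2B-GFP;Lmo2Tg mice were sorted after doxycycline labelling of their histones and a chase without doxycycline into GFP hi cells, which had kept the label and so had divided little, and GFP lo cells, which had diluted it (3 libraries each; both groups carry the transgene). The second table held total DN3 cells of young mice of 4 genotypes: wild-type (wt, 3 libraries), p21-/- (2 libraries), Lmo2Tg (2 libraries) and Lmo2Tg;p21-/- (2 libraries). Lmo2Tg drives the oncogene Lmo2 in T cells from the CD2 promoter, p21 is the cell-cycle inhibitor encoded by Cdkn1a, and mice were pooled for every library. P-values here measure only the spread between such libraries.

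Chaperones bind unfolded proteins and help them fold. HSP70 proteins (Hspa genes) bind and release short stretches of unfolded chain in a cycle driven by ATP, J proteins (Dnaj genes) deliver clients to them and start ATP hydrolysis, BAG and HSP110 proteins (Hsph1) drive the exchange of nucleotide, HSP90 finishes the folding of kinases and receptors, and the ring-shaped TRiC complex (Tcp1 and Cct genes) folds actin and tubulin. Some are made at all times, such as Hspa8 and Hsp90ab1, while others, such as Hspa1a, Hspa1b, Hsph1, Dnajb1 and Bag3, are transcribed on heat or proteotoxic stress by the factor HSF1 through heat-shock elements, and those of the endoplasmic reticulum (ER), such as Hspa5 (BiP) and Dnajb9 (ERdj4), rise when unfolded protein builds up there.

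For a selection of cytosolic (Hspa1a, Hspa1b), mitochondrial (Hspe1) and ER genes (Hspa5, Hsp90b1, Dnajc3, Dnajb9), the 150 bases before the transcription start are shown. They are as in RefSeq (GRCm38.p6), each 5′ to 3′ on the strand of its gene. The selection was made by hand, and other inducible genes named below, such as Hsph1, Dnaja1, Dnajb1 and Bag3, are not shown. Capitals mark a match to one of 2 motifs: the heat-shock element GAANNTTCNNGAA in Hspe1, and the ER-stress response element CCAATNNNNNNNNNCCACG, bound by ATF6 and NF-Y, in Hspa5, Hsp90b1 and Dnajc3. Both strands were searched, so a match can read as the reverse complement.
Hspa1a, chr17:34972157-34972306, minus strand: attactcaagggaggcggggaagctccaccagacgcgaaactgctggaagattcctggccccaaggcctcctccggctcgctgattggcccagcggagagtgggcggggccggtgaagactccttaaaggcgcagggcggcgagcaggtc
Hspa1b, chr17:34959239-34959388, minus strand: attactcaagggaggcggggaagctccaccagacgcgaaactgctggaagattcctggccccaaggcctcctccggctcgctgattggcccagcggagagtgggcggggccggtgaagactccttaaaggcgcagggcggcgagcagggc
Hspe1, chr1:55087998-55088147, plus strand: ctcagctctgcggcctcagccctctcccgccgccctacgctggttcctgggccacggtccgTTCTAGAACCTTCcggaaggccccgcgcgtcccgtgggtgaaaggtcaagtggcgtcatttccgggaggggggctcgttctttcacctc
Hspa5, chr2:34771940-34772089, plus strand: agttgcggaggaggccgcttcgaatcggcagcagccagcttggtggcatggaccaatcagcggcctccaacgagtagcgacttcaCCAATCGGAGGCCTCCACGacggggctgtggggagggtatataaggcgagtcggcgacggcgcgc
Hsp90b1, chr10:86705445-86705594, minus strand: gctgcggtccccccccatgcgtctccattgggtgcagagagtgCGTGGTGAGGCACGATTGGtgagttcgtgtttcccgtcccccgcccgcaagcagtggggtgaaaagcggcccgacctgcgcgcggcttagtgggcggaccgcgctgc
Dnajc3, chr14:118937782-118937931, plus strand: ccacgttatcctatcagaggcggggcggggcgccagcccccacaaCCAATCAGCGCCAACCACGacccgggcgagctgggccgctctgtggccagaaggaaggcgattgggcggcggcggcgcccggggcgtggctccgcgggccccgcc
Dnajb9, chr12:44210069-44210218, minus strand: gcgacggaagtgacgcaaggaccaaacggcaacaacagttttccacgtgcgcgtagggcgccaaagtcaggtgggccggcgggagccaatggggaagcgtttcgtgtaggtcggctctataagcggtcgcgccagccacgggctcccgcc

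Hspa1a and Hspa1b, neighbouring genes on the minus strand of chromosome 17, differed at 1 of these 150 bases and at 3 of the 250 bases before the start. In their transcripts, 1716 of the 2918 stretches of 50 bases in Hspa1a (58.81%) also stood in Hspa1b, while none stood in Hspa8. The levels of Hspa1a and Hspa1b, and the division of counts between them, are therefore uncertain. Windows of 250 bases were found for 73 of the 89 genes. The heat-shock element matched before Hspd1, Hspe1 and Dnajb6, and in 0.466% of 32851 windows of all genes. The ER-stress element matched in 0.113% of those windows: 65 to 47 bases before the start of Hspa5, 107 to 89 and 212 to 194 bases before that of Hsp90b1, and 105 to 87 bases before that of Dnajc3. Hspa1a, Hspa1b and Dnajb9 held no match to these letters.

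Libraries held 26861394 to 31106213 counts in the GFP table and 13864936 to 16837667 in the genotype table. Cdkn1a stood at 36.5, 37.5 and 49.0 CPM (a count divided by its library's TMM-scaled total) in wt, 14.3 and 17.7 in p21-/-, 32.8 and 26.3 in Lmo2Tg, and 4.35 and 3.50 in Lmo2Tg;p21-/- libraries, and Lmo2 was at or below 0.306 CPM without the transgene and at 41.4 to 107 with it in the 4 genotypes. GFP hi replicate 3 stood apart from the other GFP hi libraries: it held 285 CPM of Lmo2 against 53.8 and 29.5, and 6.56 CPM of Cdkn1a against 35.8 and 29.9. Results of the GFP sort are therefore given with and without it. The summed level of 14 DN3 markers was 6683 to 10260 CPM over all libraries, and the sums of B-lineage, myeloid and erythroid markers each stayed at or below 57.4 CPM. Markers of later thymocytes summed to 79.3 to 235 CPM and stromal and endothelial markers to 179 to 313 CPM.

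Many of the chaperones were abundant messages in DN3 cells. The 89 genes took 1.77%, 1.84% and 1.77% of the counts in the 3 wt libraries. More than 100 CPM in every library were reached by 29 of them in the genotype data and by 28 in the GFP data. At the other end, 5 genes of the genotype table and 6 of the GFP table had no count in any library. Enough counts for a test were present for 76 genes in the genotype table and 74 in the GFP table, and the 13 and 15 left out never rose above 0.785 and 0.373 CPM. Among those were the small heat-shock proteins Hspb1 and Hspb8, which are strongly stress-inducible in many tissues, and Dnaja4.

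Per kilobase of exon, the constitutive HSP90 gene Hsp90ab1 led in wt DN3 cells with a mean of 1412 CPM per kb. It was followed by Hspa8, the constitutive cytosolic HSP70, at 459 CPM per kb, the chaperonin subunit Cct2 at 255, the mitochondrial chaperonin Hspd1 at 253, and the inducible HSP90 gene Hsp90aa1 at 209.7. The ER HSP70 Hspa5 stood at 125 CPM per kb. Several classical inducible members were lower on the same scale, with Hspa1b at 37.3, Hsph1 at 21.8, Hspa1a at 13.1 and Bag3 at 1.49 CPM per kb. The scale divides by the merged exons of all annotated transcripts of a gene, so comparisons between genes are approximate. Hspa2, grouped with the constitutive genes and best known from the testis, stood at 1.28 CPM per kb.

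The first comparison asked how label-retaining GFP hi cells differed from cycling GFP lo cells, both from Lmo2Tg mice. The HSP70 machine was split: Hsph1, Hspa8 and Dnaja1 were higher in GFP hi cells, and the inducible HSP70 genes Hspa1a and Hspa1b were lower. Of 74 genes tested, 9 were higher and 5 lower at an adjusted p under 0.05 (edgeR quasi-likelihood test, Benjamini-Hochberg over all genes), when 5.37% of all genes tested were higher and 9.49% lower. Without GFP hi replicate 3, 27 were higher and 8 lower, against 19.5% and 21.7% of all genes, and all 14 called with it were among these in the same direction. The 14 calls fell to 0 without GFP lo replicate 2, 1 without GFP lo replicate 3, 3 without GFP hi or GFP lo replicate 1, and 8 without GFP hi replicate 2. The study states that the cells came from separate cohorts of mice, but not whether a replicate number marks a cohort. With the number as a block 3 calls were left, Dnaja1 higher and Hspa1a and Hspa1b lower. The median log2 fold change of the 74 genes was 0.09, and 0.02 over all genes tested.

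Hsph1, the HSP110 that exchanges nucleotide on HSP70, held 311, 284 and 140.4 CPM in the GFP hi libraries and 111, 91.7 and 90.2 CPM in the GFP lo libraries. The groups did not overlap, and the lowest GFP hi value was that of replicate 3. Its log2 fold change was 1.33 ± 0.30 (SE; edgeR, adjusted p = 0.0361), and 1.61 ± 0.098 without replicate 3 (edgeR, adjusted p = 0.000107).

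Hspa8, which carries most of the cytosolic HSP70 message, held 809, 763 and 542 CPM in GFP hi and 446, 400.1 and 404 CPM in GFP lo libraries. Again every GFP hi library was above every GFP lo library. The log2 fold change was 0.76 ± 0.16 (edgeR, adjusted p = 0.0293), and 0.92 ± 0.066 without replicate 3. Dnaja1, a J protein that serves cytosolic HSP70, was at 119, 114 and 102 CPM against 77.5, 71.0 and 72.0, with a log2 fold change of 0.60 ± 0.075 (edgeR, adjusted p = 0.00716). It was the sole member called at an adjusted p under 0.01 over the 6 libraries.

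The inducible HSP70 genes went the other way. Hspa1a stood at 3.79, 7.75 and 6.18 CPM in GFP hi and 19.4, 24.5 and 19.1 CPM in GFP lo libraries, with no overlap. Its log2 fold change was -1.83 ± 0.28 (edgeR, adjusted p = 0.0124). Hspa1b stood at 10.8, 18.2 and 21.2 CPM against 45.4, 54.2 and 46.4 CPM, also without overlap, and its log2 fold change was -1.54 ± 0.25 (edgeR, adjusted p = 0.0148). Here replicate 3 did not stand apart, and without it the changes were -1.85 ± 0.28 and -1.74 ± 0.21. Bag3, the stress-inducible BAG protein that joins HSP70 to selective autophagy, was at 5.14, 1.95 and 7.38 CPM in GFP hi and 14.3, 14.8 and 15.4 CPM in GFP lo libraries. The groups were apart, and the log2 fold change of -1.62 ± 0.45 did not pass the test (edgeR, adjusted p = 0.0605) until replicate 3 was left out (-2.07 ± 0.34, edgeR adjusted p = 0.00405).

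The cytosolic genes listed as inducible therefore did not move as one. Of the 7 tested, Hsph1 and Dnaja1 rose and Hspa1a and Hspa1b fell in GFP hi cells. Dnajb1, a J protein and heat-shock target, was at 209, 192 and 222 CPM against 206, 193 and 182 CPM, overlapping between groups. Hsp90aa1, the inducible HSP90, was at 248, 245.5 and 179.7 CPM in GFP hi and 163, 160.5 and 182 CPM in GFP lo libraries. Replicate 3 fell within the GFP lo range, so Hsp90aa1 was called only in the 5-library fit (log2 fold change 0.55 ± 0.065, edgeR adjusted p = 0.00105). Of the 6 constitutive genes Hspa8 was called, joined without replicate 3 by Hspa4, an HSP110 relative of Hsph1, at 0.26 ± 0.066. Hsp90ab1 had a log2 fold change of 0.01 ± 0.10.

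**Figure D1:**
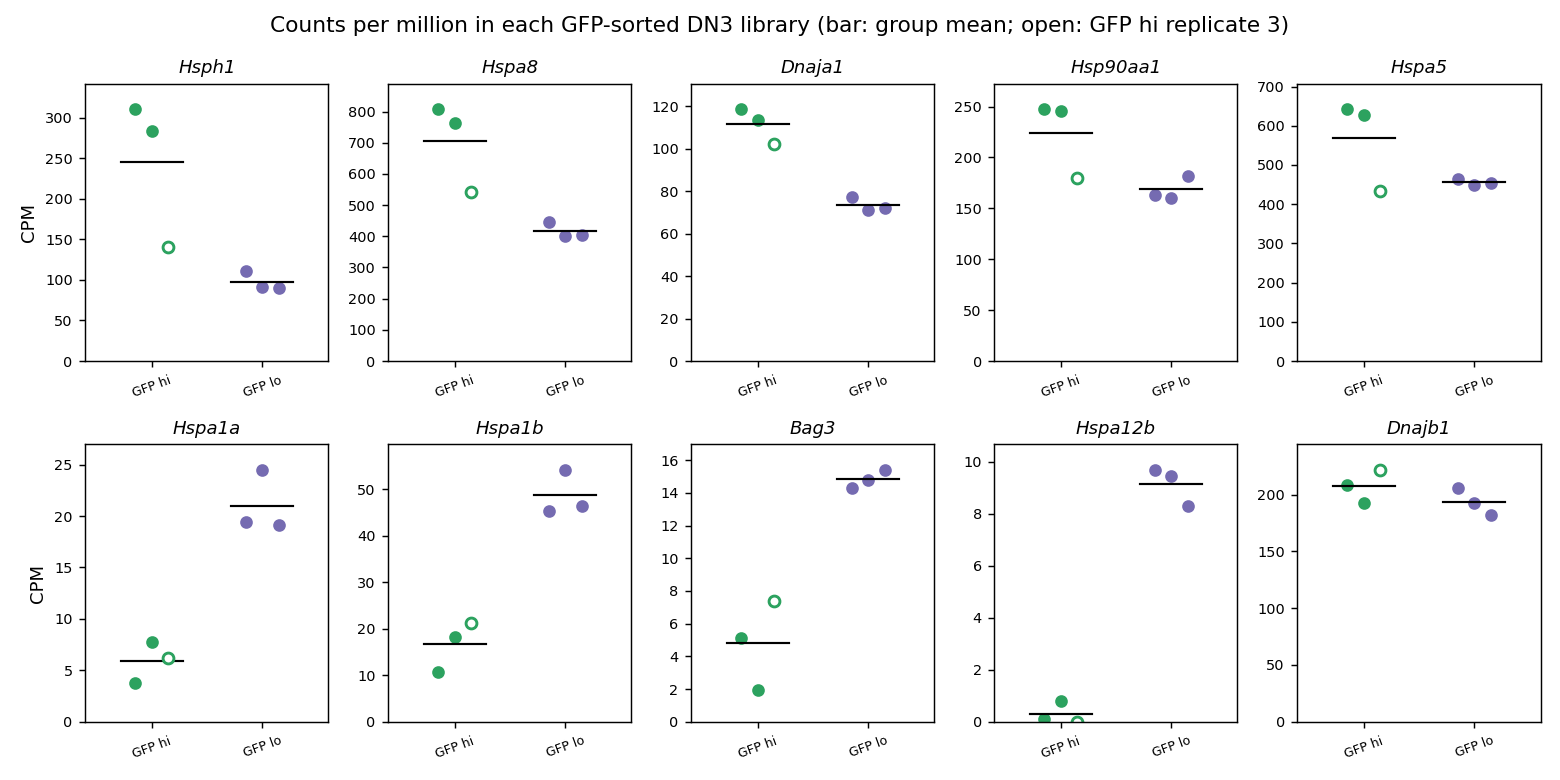
Levels in CPM (y axis, from 0) of 10 chaperone genes in the 3 GFP hi and 3 GFP lo DN3 libraries; points are libraries, bars are group means and the open point is GFP hi replicate 3. Hsph1, Hspa8 and Dnaja1 are higher in every GFP hi library, Hspa1a, Hspa1b, Bag3 and Hspa12b are lower, and for Hsp90aa1 and Hspa5 the open point lies among or below the GFP lo libraries.

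In the ER, Dnajb9, a J protein that assists BiP, and Dnajc3 (p58IPK), another BiP partner, were higher in GFP hi cells, with log2 fold changes of 0.69 ± 0.15 (edgeR, adjusted p = 0.0308) and 0.48 ± 0.086 (edgeR, adjusted p = 0.0194). Dnajc3 held 242, 234 and 204 CPM in GFP hi and 164, 152 and 170.4 CPM in GFP lo libraries. Hspa5 held 643, 627 and 434 CPM against 465, 449.9 and 455 CPM, so 2 GFP hi libraries were above the GFP lo range and replicate 3 below it. Without replicate 3, when 19.5% of all genes were higher and 21.7% lower, 6 of the 12 ER genes were higher: Hspa5 (log2 fold change 0.48 ± 0.048), Hsp90b1 (0.55 ± 0.077), Hspa13 (0.59 ± 0.062), Dnajb11 (0.50 ± 0.064), Dnajb9 and Dnajc3. Dnajc25 was lower (-0.35 ± 0.11).

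Of the other J proteins, Dnajc6 (auxilin), which uncoats clathrin vesicles with Hspa8, rose by 0.93 ± 0.20 on the log2 scale in GFP hi cells (edgeR, adjusted p = 0.0313). It stood at 188, 171 and 286 CPM against 118, 112.5 and 109 CPM, and replicate 3 was the highest. Dnajb2 (0.75 ± 0.15) and Dnajc14 (0.25 ± 0.059) were also called higher. Bag6, which guards tail-anchored proteins before their insertion into membranes, was lower at 302, 300.5 and 325 CPM against 362, 379 and 369 CPM (-0.26 ± 0.058, edgeR adjusted p = 0.0353), and Hspbp1 was lower by the same order (-0.29 ± 0.060).

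The largest fitted change was that of Hspa12b, a distant HSP70 relative best known from endothelium. It held 0.110, 0.785 and 0 CPM in GFP hi and 9.69, 9.43 and 8.28 CPM in GFP lo libraries. The fitted log2 fold change of -4.88 ± 0.95 (edgeR, adjusted p = 0.0249) depends on the prior count because 1 library had none. Pecam1, an endothelial marker, was at 193 to 233 CPM in GFP hi and 213 to 245 CPM in GFP lo libraries. The part of contaminating endothelial cells in the Hspa12b result was not tested. In bulk samples such as these, fewer cells of a type and less RNA per cell cannot be told apart.

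Other gene groups were also read in this sort, and some differed. B-lineage markers were higher for 4 of 8 tested, when 5.37% of all genes were higher. Sums of these markers were 30.2 to 57.4 CPM in GFP hi and 25.6 to 29.1 CPM in GFP lo libraries. No defining marker of the list was at 0 in all libraries of a group. Of the 17 S and M phase genes listed 0 were called, and their median log2 fold change was -0.30. Without replicate 3 the median was -0.10, and 1 gene was called lower, when 21.7% of all genes were lower in that fit. Sums of the list were 5846, 6475 and 4295 CPM in the GFP hi libraries, with replicate 3 the lowest, against 5727 to 7606 CPM in GFP lo. The median log2 fold change of genes was -0.43 on chromosome 15 and -0.18 on chromosome 2, against 0.05 elsewhere in the genome. The members there include Cct5 and Dnajc21 on chromosome 15 and Hspa5, Hspa14 and Hspa12b on chromosome 2. The part of these differences in the chaperone values was not tested.

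**Figure D2:**
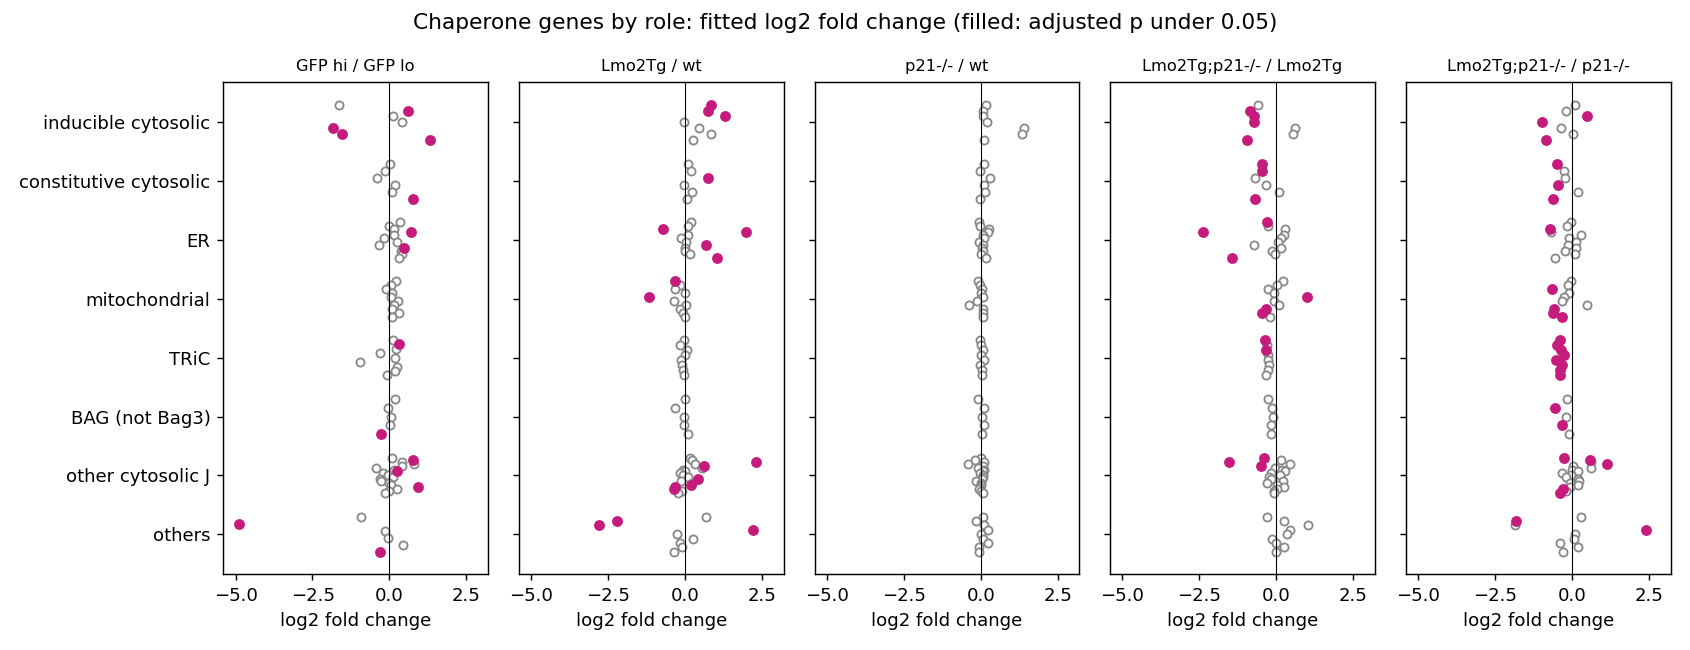
Fitted log2 fold change (x axis) of each tested chaperone gene by role (y axis) in 5 comparisons; filled points passed an adjusted p under 0.05 and open points did not. Inducible genes lie on both sides of 0 in GFP hi cells, called ER and inducible genes are mostly higher in Lmo2Tg and lower in Lmo2Tg;p21-/- than in Lmo2Tg, and all 8 TRiC genes are lower in Lmo2Tg;p21-/- than in p21-/- cells.

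The second question was what the Lmo2 transgene alone did. Several stress-inducible J proteins and the ER chaperone BiP were higher in Lmo2Tg than in wt DN3 cells, while the abundant constitutive chaperones were close to wt. Of 76 genes tested, 12 were higher and 7 lower (edgeR), when 19.7% of all genes were higher and 16.9% lower, shares no smaller than those among the chaperones. The median log2 fold change was -0.00 over the 76 genes and -0.01 over all genes.

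Dnajb4, a cytosolic J protein of the same subgroup as Dnajb1, stood at 25.4, 26.3 and 18.4 CPM in wt and 105 and 124 CPM in Lmo2Tg libraries. The groups lay far apart, with a log2 fold change of 2.29 ± 0.21 (edgeR, adjusted p = 2.01e-05). Dnajb1 stood at 111, 114 and 107 CPM in wt and 271 and 267 CPM in Lmo2Tg libraries, a change of 1.28 ± 0.088 with little spread within either group (edgeR, adjusted p = 2.58e-06). Dnaja1 went from a mean of 192 ± 7.24 CPM (SD) over the 3 wt libraries to 345 and 302 CPM, a change of 0.75 ± 0.081 (edgeR, adjusted p = 5.67e-05).

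In the ER, Hspa5 stood at 534.5, 612 and 435 CPM in wt and 1107 and 1059 CPM in Lmo2Tg libraries. The log2 fold change was 1.04 ± 0.17 (edgeR, adjusted p = 0.00106). Dnajb9, which joins BiP in degrading misfolded ER proteins, stood at 30.2, 35.4 and 18.2 CPM against 105 and 114 CPM, a change of 1.97 ± 0.30 (edgeR, adjusted p = 0.000528). These rises were not shared by the ER HSP90 Hsp90b1, at 354, 376 and 309 CPM in wt and 346.5 and 342.5 CPM in Lmo2Tg libraries. Nor were they shared by Dnajc3 (log2 fold change -0.00 ± 0.081). The ER-stress element shown above matched before Hspa5, Hsp90b1 and Dnajc3 but not Dnajb9, and its part in these levels was not tested. Dnajb14, an ER membrane J protein, was lower (-0.73 ± 0.16, edgeR adjusted p = 0.00575), and Dnajc25 was higher (0.68 ± 0.19, edgeR adjusted p = 0.0166).

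Bag3 (0.84 ± 0.27), Hspa2 (0.74 ± 0.22), Dnajb6 (0.62 ± 0.11), Dnajc21 (0.43 ± 0.085) and Dnajc5 (0.21 ± 0.071) were also higher in log2 terms. Hspa12b rose from 0.981, 0.954 and 0.847 CPM in wt to 5.99 and 2.60 CPM in Lmo2Tg libraries (2.19 ± 0.39, edgeR adjusted p = 0.00147). Among the lower genes were Dnajc28, a little-studied mitochondrial J protein, at -1.16 ± 0.23, Dnaja3, the mitochondrial partner of Hspa9, at -0.32 ± 0.11, and the cytosolic Dnajc7 and Dnajc6. The remaining 2, Dnajb3 and Hspa12a, were near the detection limit, at or below 1.47 CPM in every library. Hspa8 (0.06 ± 0.089), Hsp90ab1 (0.10 ± 0.098) and Hsp90aa1 (-0.02 ± 0.15) were not called, and the TRiC genes had a median log2 fold change of -0.05.

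Loss of p21 alone gave no call among the chaperones. With edgeR 0 of 76 genes passed, when 0.11% of all genes were called, and DESeq2 and limma-voom also gave 0. An unadjusted edgeR p under 0.05 was reached by 391 of all 11840 genes tested, and among the 76 chaperones by 2 genes. Those were Hspa1b (unadjusted p = 0.0177) and Hspa1a (unadjusted p = 0.0297), named after their values were seen. Hspa1b stood at 121.5, 163 and 29.6 CPM in wt and 259 and 275 CPM in p21-/- libraries, and Hspa1a at 42.0, 67.3 and 7.20 CPM against 95.8 and 109 CPM. The p21-/- libraries were above all wt libraries, but wt replicate 3 was far below the other wt libraries for both genes, and the log2 fold changes of 1.35 ± 0.48 and 1.40 ± 0.56 each had an edgeR adjusted p of 0.984. Both genes were called higher when the replicate number, which was not taken to pair the libraries, was added as a block. That block also took out wt replicate 3, the sole library with its number in the fit. Leaving this library out without a block gave 0 calls. In Lmo2Tg libraries Hspa1b held 153 and 223 CPM and in Lmo2Tg;p21-/- libraries 206 and 337 CPM, so spread within groups was wide throughout.

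The next comparison asked what p21 loss changed when the Lmo2 transgene was present. Nearly all called chaperones fell, among them HSP70, HSP90, HSP110, BiP and their J proteins. In Lmo2Tg;p21-/- against Lmo2Tg cells, 17 of 76 genes were lower and 1 higher (edgeR), when 3.59% of all genes were lower and 3.35% higher. The median log2 fold change was -0.14 over the 76 genes and 0.02 over all genes. Both Lmo2Tg libraries also enter the comparison with wt, so the rise there and the fall here share them. The 18 calls fell to 4 without Lmo2Tg;p21-/- replicate 1, 8 without Lmo2Tg replicate B, 9 without Lmo2Tg;p21-/- replicate 2, and 11 without wt replicate 1 or 2.

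The 3 largest falls were of genes that were higher in Lmo2Tg than in wt cells. Dnajb9 held 105 and 114 CPM in Lmo2Tg and 23.7 and 18.1 CPM in Lmo2Tg;p21-/- libraries (-2.39 ± 0.35, edgeR adjusted p = 0.00469). Dnajb4 went from 105 and 124 CPM to 39.1 and 39.3 CPM (-1.55 ± 0.24, edgeR adjusted p = 0.00587). Hspa5 went from 1107 and 1059 CPM to 399 and 404 CPM (-1.43 ± 0.20, edgeR adjusted p = 0.00445). Against the wt range, the Lmo2Tg;p21-/- libraries were lower for Hspa5 and higher for Dnajb4, while for Dnajb9 one lay inside it and the other just below its lowest value. Dnajb1, at 163.0 and 163 CPM, was lower than in Lmo2Tg (-0.72 ± 0.098, edgeR adjusted p = 0.00404) and still above its wt libraries. Dnaja1, at 178 CPM in both, was lower by 0.86 ± 0.090 in log2 terms and slightly below its wt libraries.

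Abundant cytosolic chaperones that had not been called with the transgene alone also fell. Hspa8 held 1997 and 2116 CPM in Lmo2Tg and 1199 and 1340.0 CPM in Lmo2Tg;p21-/- libraries, against 1800.0 to 2083 CPM in wt (-0.70 ± 0.098, edgeR adjusted p = 0.00466). Hsph1 held 192 and 184 CPM against 97.6 and 94.4 CPM (-0.97 ± 0.12, edgeR adjusted p = 0.00294). Hsp90aa1 held 739 and 884 CPM against 402 and 569.7 CPM (-0.74 ± 0.16, edgeR adjusted p = 0.0256). The Lmo2Tg;p21-/- values of these 3 genes were the lowest of the 4 genotypes and did not overlap any other library. Hsp90ab1 (-0.48 ± 0.11), Hspa14 (-0.46 ± 0.088), Dnaja2 (-0.40 ± 0.080), Dnajb6 (-0.50 ± 0.12), Dnajb11 (-0.31 ± 0.082), Hspd1 (-0.45 ± 0.10), Hspa9 (-0.35 ± 0.088), Cct2 (-0.36 ± 0.094) and Cct4 (-0.35 ± 0.082) were called lower too. The higher gene was Dnajc28 (0.98 ± 0.25, edgeR adjusted p = 0.0407). Hspa1a and Hspa1b were not called, with log2 fold changes of 0.59 ± 0.62 and 0.53 ± 0.54.

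**Figure D3:**
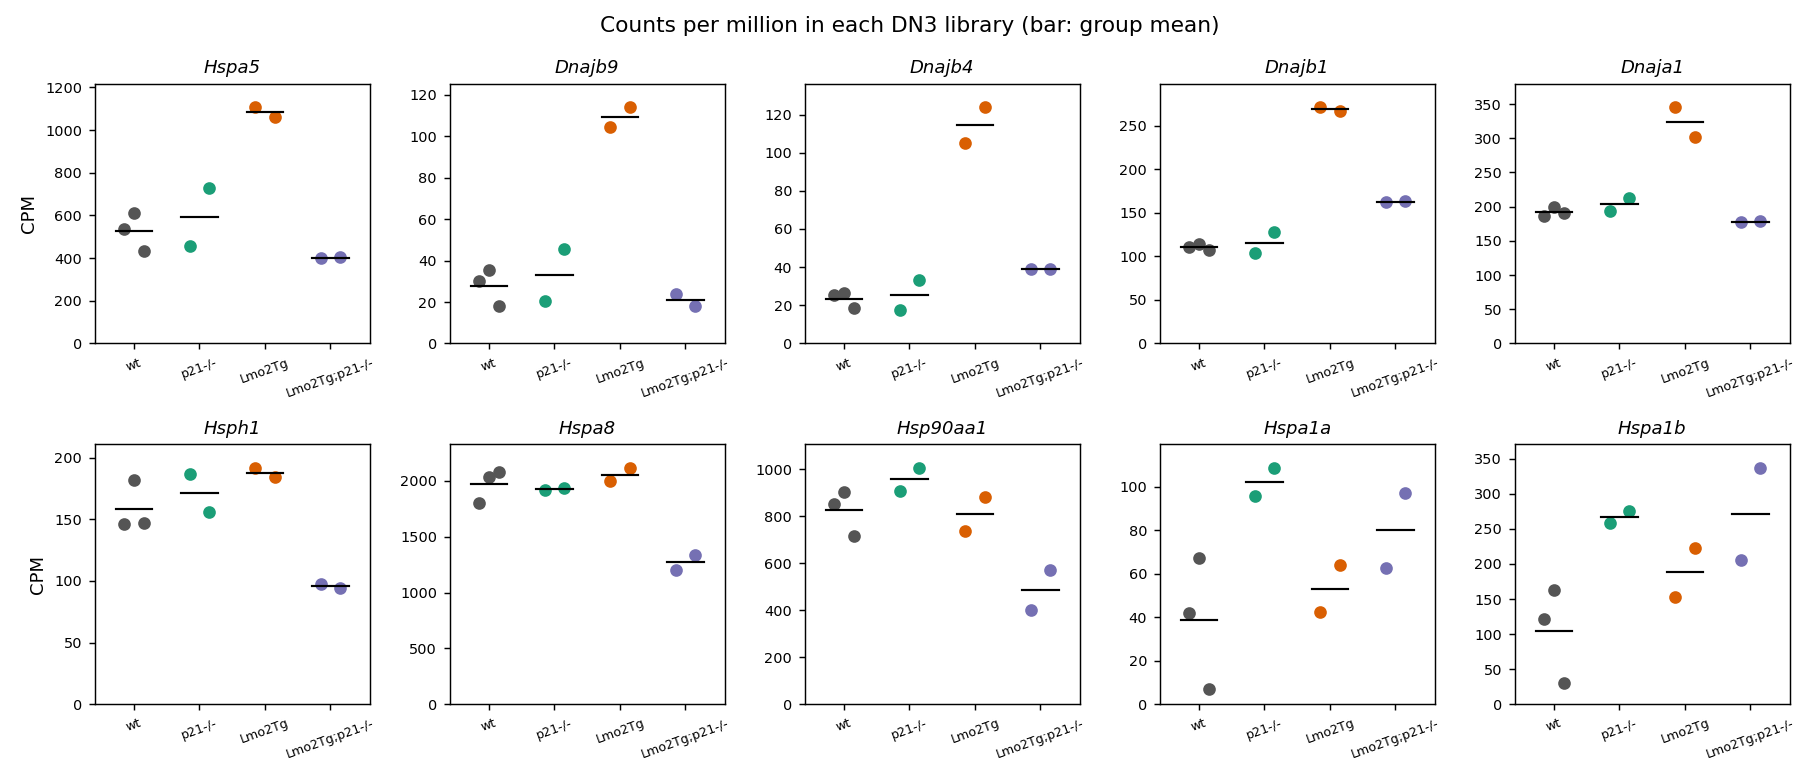
Levels in CPM (y axis, from 0) of 10 chaperone genes in the wt (3 libraries), p21-/-, Lmo2Tg and Lmo2Tg;p21-/- (2 libraries each) DN3 groups; points are libraries and bars are group means. Hspa5, Dnajb9, Dnajb4, Dnajb1 and Dnaja1 are highest in Lmo2Tg, Hsph1, Hspa8 and Hsp90aa1 are lowest in Lmo2Tg;p21-/-, and Hspa1a and Hspa1b vary widely within groups.

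Set against p21-/- cells, Lmo2Tg;p21-/- cells had 24 of 76 chaperone genes lower and 4 higher (edgeR), when 14.4% of all genes were lower and 16.3% higher. This comparison shares the Lmo2Tg;p21-/- libraries with the preceding one. The 28 calls fell to 12 without Lmo2Tg;p21-/- replicate 1 and to 15 without p21-/- replicate 2. The median log2 fold change was -0.20 over the 76 genes and -0.00 over all genes. Of the HSP90 and HSP70 genes called lower, Hsp90aa1 had the steepest fall, from 909 and 1005 CPM to 402 and 569.7 CPM (-0.98 ± 0.16, edgeR adjusted p = 0.00124). Hsph1 fell by 0.83 ± 0.12, Hspa8 by 0.60 ± 0.098, Hsp90ab1 by 0.50 ± 0.11 and Hspa4 by 0.44 ± 0.098 on the log2 scale. In mitochondria Hspd1 (-0.60 ± 0.10), Hspa9 (-0.57 ± 0.088), Hspe1 (-0.32 ± 0.10) and Dnajc15 (-0.66 ± 0.14) were lower; reads of Hspd1 and Hspe1 can overlap because the 2 genes lie head to head on opposite strands. The higher genes were Hspa12b (2.39 ± 0.42), Dnajb5 (1.15 ± 0.24), Dnajb2 (0.57 ± 0.14) and Dnajb1 (0.49 ± 0.098), so Dnajb1 was above its level without the transgene in the absence of p21 as well.

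All 8 tested TRiC genes were called lower in Lmo2Tg;p21-/- than in p21-/- cells (edgeR), when 14.4% of all genes were lower. Their log2 fold changes ran from -0.27 ± 0.089 for Cct5 to -0.51 ± 0.089 for Cct6a, with a median of -0.38. The summed level of the complex was 3791, 3918 and 4052 CPM in wt, 3877 and 4122 CPM in p21-/-, 3585 and 3973 CPM in Lmo2Tg, and 2907 and 3219 CPM in Lmo2Tg;p21-/- libraries, which did not overlap any other group. Against Lmo2Tg the 8 changes were also negative, from -0.25 ± 0.10 to -0.36 ± 0.094, but only Cct2 and Cct4 passed, when 3.59% of all genes were lower. In the GFP sort Cct3 was called higher in GFP hi (0.31 ± 0.074, edgeR adjusted p = 0.0426), when 5.37% of all genes were higher. Without replicate 3 Cct2, Cct3, Cct4, Cct6a, Cct7 and Cct8 were called higher by 0.20 to 0.38, Cct5 was called lower (-0.18 ± 0.054) and Tcp1 was not called. In that fit 19.5% of all genes were higher and 21.7% lower. Cct5 lies on chromosome 15, whose genes were lower in GFP hi cells as given above. Cct6b, the testis form of Cct6a, stayed at or below 0.763 CPM.

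**Figure D4:**
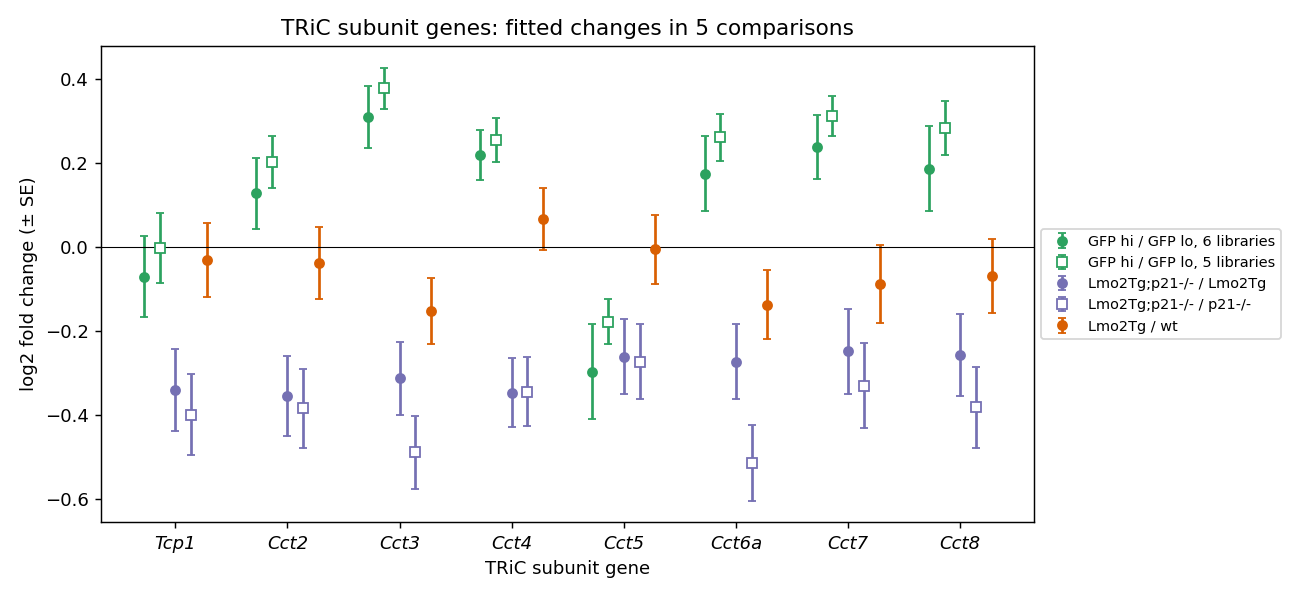
Log2 fold change (y axis, bars are ± SE) of the 8 TRiC subunit genes (x axis) in 5 fits: GFP hi against GFP lo with 6 and with 5 libraries, Lmo2Tg;p21-/- against Lmo2Tg and against p21-/-, and Lmo2Tg against wt. All 8 genes lie below 0 in both Lmo2Tg;p21-/- comparisons, and Cct5 and Tcp1 are below 0 in the GFP comparison while the 6 others are above it.

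Whether p21 loss acted differently with and without the transgene was tested as an interaction. The effect was more negative with the transgene for 7 of 76 genes, when 1.1% of all genes were called in that direction (edgeR). These were Dnajb9, Dnajb4, Hspa5, Hsph1, Dnaja1, Dnajb1 and Hspa8, with differences in log2 effect from -0.66 ± 0.13 for Hspa8 to -2.64 ± 0.46 for Dnajb9. This count did not survive the loss of single libraries: it was 0 without wt replicate 1, wt replicate 3 or either Lmo2Tg;p21-/- replicate, 1 without p21-/- replicate 2 and 2 without Lmo2Tg replicate A.

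Partners and regulators of the chaperones were read from lists in the same fits. Of the heat-shock factors, Hsf1, the master regulator of the heat-shock response, was lower in GFP hi cells (-0.28 ± 0.068) and higher in Lmo2Tg than wt (0.22, edgeR adjusted p = 0.0328). Hsf4 was called higher there too but was near the detection limit, at or below 0.318 CPM in wt and 0.889 CPM in Lmo2Tg libraries. Of the 4 listed genes 3 were tested. Of 15 HSP90 and HSP70 co-chaperones, a list that includes Hspbp1, 2 were higher and 1 lower in GFP hi cells and 8 higher and 1 lower without replicate 3, among them Stip1, which bridges HSP70 and HSP90, and Ahsa1, which stimulates the HSP90 ATPase. Of all genes 5.37% were higher and 9.49% lower in the GFP fit, and 19.5% and 21.7% without replicate 3. In Lmo2Tg;p21-/- against p21-/- cells 6 of the 15 co-chaperones were lower and 2 higher, when 14.4% of all genes were lower and 16.3% higher. Against Lmo2Tg 1 was higher, when 3.35% of all genes were higher. Against wt, Lmo2Tg cells had 4 of the 15 lower, namely Fkbp5, Ahsa1, Fkbp4 and Ppid, and 1 higher. Of all genes 16.9% were lower and 19.7% higher there. Of 9 prefoldin and phosducin-like genes, which hand clients to TRiC, at most 2 were called in any comparison over all libraries and 4 without GFP hi replicate 3. Of 9 mitochondrial partners and proteases at most 1 was called over all libraries, and 2 without that replicate.

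Of 19 other genes of ER folding and the unfolded protein response, 4 were higher and 6 lower in Lmo2Tg than in wt cells, when 19.7% of all genes were higher and 16.9% lower, so the higher share was that of genes at large. Atf4, the factor translated when eIF2 alpha is phosphorylated, rose by 1.08 on the log2 scale and its target Ddit3 by 0.63, together with Calr and Edem1. Xbp1 (-0.99), Atf6, Sdf2l1, Sil1, Sel1l and Pdia6 fell. Hspa5 and Dnajb9 were higher in the same libraries in which Xbp1 and Atf6 messages were lower. The part of these factors in the chaperone levels was not tested. Atf4 and Ddit3 were the 2 genes of the list called in Lmo2Tg;p21-/- against Lmo2Tg, both lower, when 3.59% of all genes were lower. In GFP hi cells Ern1 and Pdia4 were higher, and without replicate 3 the list had 11 higher and 1 lower, when 19.5% of all genes were higher and 21.7% lower in that fit.

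Immediate early genes, which rise during tissue dissociation, also differed between some of the groups in both tables. In the GFP sort 2 of 12 tested were called higher in GFP hi cells, Egr1 (1.90 ± 0.32) and Btg2 (0.53 ± 0.076), when 5.37% of all genes were higher. Of the 12 changes 11 were positive. Without replicate 3, 4 were higher and 1 lower, when 19.5% of all genes were higher and 21.7% lower. In that fit 9 of the 12 changes were positive. Sums of the list were 862, 836 and 1307 CPM in GFP hi and 746, 615 and 568.5 CPM in GFP lo libraries. The highest was that of GFP hi replicate 3, where Jun held 262 CPM against 68.1 and 68.6 in the other GFP hi libraries. In the genotype table, of 13 listed, 8 were higher in Lmo2Tg than wt and 6 were lower in Lmo2Tg;p21-/- than Lmo2Tg. Of all genes, 19.7% were higher in the first of these comparisons and 3.59% lower in the second. In Lmo2Tg;p21-/- against p21-/- cells 0 of the 13 were called, when 14.4% of all genes were lower and 16.3% higher. Their summed level was 416 to 1911 CPM in wt, 694 to 1341 CPM in p21-/-, 2299 to 4026 CPM in Lmo2Tg and 709 to 934 CPM in Lmo2Tg;p21-/- libraries, and wt replicate 3, which was lowest for Hspa1a and Hspa1b, was also lowest here. S and M phase genes were lower in Lmo2Tg;p21-/- than p21-/- for 15 of 17, when 14.4% of all genes were lower, with sums of 4872 to 6244 CPM against 7302 to 8041 CPM. DN3 markers were lower in Lmo2Tg than wt for 9 of 14, and higher for 3, with sums of 6683 to 7693 CPM against 9561 to 10040 CPM. Myeloid markers were higher in Lmo2Tg than wt for 4 of 11 and lower for 1, with sums of 32.0 to 37.3 CPM against 20.3 to 30.2 CPM. Between Lmo2Tg and wt 19.7% of all genes were higher and 16.9% lower. The part of handling, of cell-cycle state and of the mix of cells in the chaperone values was not tested.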

How the data were processed

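The authors deposited raw read counts per protein-coding gene, from poly-A RNA of pooled mice, in one table for the GFP sort and one for the genotypes; the labels name STAR 2.4.2a, featureCounts, limma and mm10. The names of the tables carry the words Reverse (GFP) and No (genotypes), so their strand settings may differ; the setting itself is not given in the sources used here, no level was compared between tables, and genes with an overlapping or antisense neighbour (Dnaja1, Dnajb6, Cct6a and Hspd1 with Hspe1 among them) are uncertain. Columns were matched to samples by name; 2 columns were matched to Lmo2Tg only as a group, 1 further column, named like another Lmo2Tg;p21-/- library, matched no sample and was not used, p21-/- replicate 3 was not analysed here, and 9 libraries of the genotype table entered.

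Counts were fitted with edgeR 4.0.16 in R 4.3.3 (quasi-likelihood test, TMM scaling, minimum count 10 and total 15), each table in one fit, with Benjamini-Hochberg adjustment over all genes tested and calls at an adjusted p under 0.05. CPM use TMM library sizes. GENCODE release 21 of mouse gave exon lengths for the 89 genes. The fit was tested on simulated counts with the same spread for every gene and no outlying library. That test therefore cannot speak to the dependence of the calls on single libraries. Alternatives were DESeq2 1.42.0, limma-voom 3.58.1, other scaling and filters, and each library left out; with few libraries per group small changes can be missed. The members and all gene lists were chosen with earlier results of these data known. Genes named are a selection of those called in each comparison, some inducible and constitutive genes that were not called, and some called genes of the other lists.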

Additional observations from a re-analysis of the deposited data

Results flagged for a closer look

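A set of 7 interaction results stood out because the effect of p21 loss differed between DN3 cells with and without the Lmo2 transgene by a test of the difference itself (edgeR, Benjamini-Hochberg over all genes). The difference, with the transgene minus without it, on the log2 scale was -2.64 ± 0.46 for Dnajb9 (edgeR adjusted p = 0.0319), -1.67 ± 0.33 for Dnajb4 (adjusted p = 0.0371), -1.60 ± 0.26 for Hspa5 (adjusted p = 0.030), -1.08 ± 0.16 for Hsph1 (adjusted p = 0.0244), -0.94 ± 0.12 for Dnaja1 (adjusted p = 0.0184), -0.79 ± 0.13 for Dnajb1 (adjusted p = 0.030) and -0.66 ± 0.13 for Hspa8 (adjusted p = 0.0395). None of the 7 was called in p21-/- against wt, and all 7 were lower in Lmo2Tg;p21-/- than in Lmo2Tg. No call was left without wt replicate 1, wt replicate 3 or either Lmo2Tg;p21-/- replicate.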

How the results depend on the processing

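No named result turned its direction while past the threshold under any alternative tried, and with RLE scaling or limma-voom every count of called chaperones stayed within 1.5 times its value. For GFP hi against GFP lo the 14 calls became 22 with DESeq2, 4 with a fold above 2, 1 at an adjusted p under 0.01, and 0 to 35 on leaving out 1 library: 35 without GFP hi replicate 3, 8 without GFP hi replicate 2, 3 when replicate 1 of either group was left out, and 1 or 0 when GFP lo replicate 3 or 2 was. For Lmo2Tg against wt, 19 became 8 with a fold above 2 and 12 at an adjusted p under 0.01. For Lmo2Tg;p21-/- against Lmo2Tg, 18 became 3, 7 and, with only the libraries of both groups, 9, and 4 to 24 on leaving out 1 library (4 without Lmo2Tg;p21-/- replicate 1, 8 without Lmo2Tg replicate B, 9 without Lmo2Tg;p21-/- replicate 2, 11 without wt replicate 1 or 2). For Lmo2Tg;p21-/- against p21-/-, 28 became 3 with a fold above 2, 15 at an adjusted p under 0.01, and 12 to 34 on leaving out 1 library (12 without Lmo2Tg;p21-/- replicate 1, 15 without p21-/- replicate 2). The 7 interaction calls became 14 with DESeq2, 4 with a fold above 2, 0 at an adjusted p under 0.01 and 0 to 8 on leaving out 1 library. The cause was not tested; stricter thresholds lower a count by construction, and a lone library left in a group was assumed to vary like the others.

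The sources do not state that a shared replicate number marks a pair, so the main fits used no block. Correlations of deviations between same-numbered libraries were 0.0703, -0.0793 and 0.0989 in the GFP table. They were -0.237 and 0.303 for wt with p21-/-, and 0.0519 for p21-/- with Lmo2Tg;p21-/-. These values cannot decide whether libraries were paired, because groups are small and the deviations of 2 libraries from their mean mirror each other. With a replicate block the calls were 3 in the GFP sort, 2 in p21-/- against wt (Hspa1a and Hspa1b, higher), and 41 in Lmo2Tg;p21-/- against p21-/-, where the numbered libraries without a block, a fit added after the data were seen, gave 27. In the blocked genotype fits only wt replicate 3 carried its number, so the block also took that library out of the comparison. Leaving it out without a block gave 34 calls in Lmo2Tg;p21-/- against p21-/- and 0 in p21-/- against wt. No paired analysis was possible for comparisons with Lmo2Tg because its columns were matched to the group and not to single samples: their short names also stand as descriptions of GFP lo samples. Over single genes and alternatives, 5082 values kept their side of the threshold, 388 lost and 94 gained a call.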
